A study of Homo sapiens with 4 samples.

Results

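The 10 genes described here code for receptors of vasoactive peptides, amines, proteases and lysophospholipids: *ADRA2A*, *OXTR*, *EDNRA*, *EDNRB*, *F2R*, *F2RL1*, *S1PR1*, *S1PR2*, *S1PR3* and *LPAR1*. They were listed by name, as receptors known from stellate cell biology, with earlier results of these data already known, and they are 10 of the 63677 rows of the gene count table. Of these 10 genes, 9 passed the filter on low counts and were tested among 18252 genes, and *EDNRB* did not pass it. LX-2 cells, an immortalised human hepatic stellate cell line, were transfected with 20 nM of a miR-6133-5p mimic or of a non-targeting mimic called miControl, with 2 libraries in each group. All 4 samples also received 5 ng/mL rhTGF-β1, a cytokine that activates stellate cells, 24 h after transfection, and RNA was taken 24 h after that. The comparison therefore asks how the mimic altered receptor transcripts in TGF-β-treated cells, and it holds no untreated cells. The 4 libraries come from 1 cell line, and no source used here says that they came from separate experiments, so the p-values measure the spread between these libraries only.

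These receptors belong to the G protein-coupled receptors, which span the membrane, bind a ligand outside the cell and switch on G proteins inside it. Receptors for endothelin, thrombin, oxytocin and lysophospholipids commonly raise intracellular calcium or activate the small GTPase RhoA, and both routes drive contraction of the cytoskeleton. In the liver, activated stellate cells contract around the sinusoids, and several of these receptors are known to act on their contraction, migration and growth.

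Most of the receptors that the cells expressed were lower with miR-6133-5p. *ADRA2A* fell to 8.84% of its miControl level, *EDNRA* to 18.4%, *LPAR1* to 30.2%, *S1PR3* to 45.8%, *S1PR2* to 50.4% and *OXTR* to 55.3%. A gene was called lower or higher where edgeR's quasi-likelihood test gave a Benjamini-Hochberg adjusted p under 0.01 and a log2 fold change beyond 0.8 in size. By this rule 6 of the 9 tested receptor genes were called lower, against 5.54% of all tested genes. No receptor gene was called higher by edgeR, against 2.90% of all tested genes. At an unadjusted p under 0.05 edgeR also gave 0 higher, and DESeq2 called 6 lower and 0 higher. The adjusted p alone was under 0.01 for 7 of the 9 genes, all of them lower, against 10.9% of tested genes that were lower with such a p. The groups did not overlap, with the mimic lower in both replicates, in 7 of the 9 genes, against 31.3% of all tested genes. The median log2 fold change of the 9 genes was -0.99, beside 0.03 over all tested genes. As the list was made with earlier results of these data known, these contrasts with all genes describe it and test nothing. With scaling by library totals alone the all-gene median was 0.19, 4 receptor genes were called lower, and the series' split of 1011 lower and 529 higher genes became 709 lower and 977 higher. These are bulk libraries, in which fewer cells expressing a receptor and less RNA per cell cannot be told apart.

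**Figure D1:**
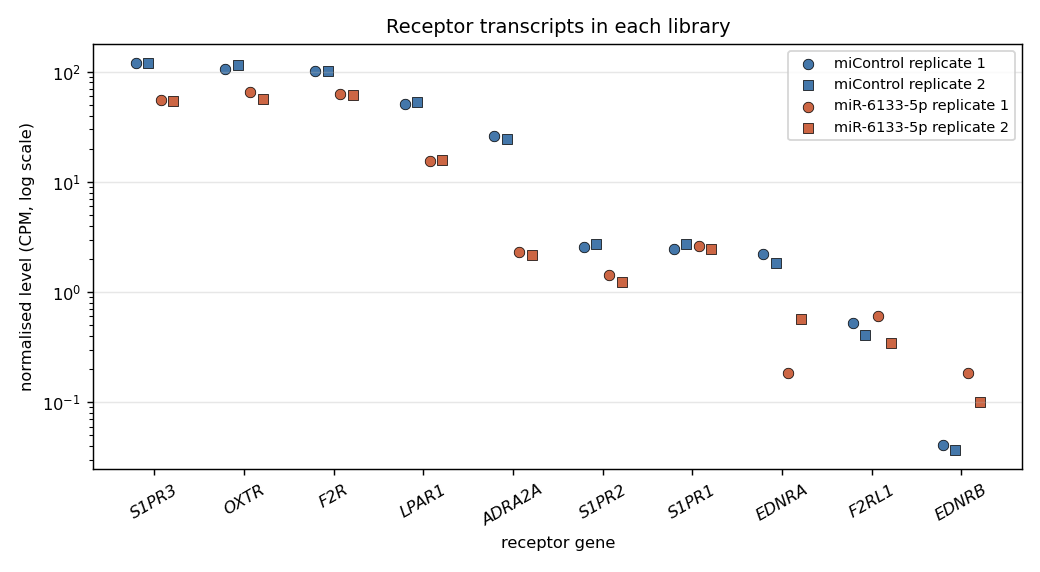
Normalised level of the 10 receptor genes in each library, in counts per 1000000 counts of the scaled library (CPM, log axis), with circles for replicate 1 and squares for replicate 2. The miR-6133-5p points lie below the miControl points for *S1PR3*, *OXTR*, *F2R*, *LPAR1*, *ADRA2A*, *S1PR2* and *EDNRA*, overlap them for *S1PR1* and *F2RL1*, and lie above them for *EDNRB*, where the miControl libraries hold 2 counts each.

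The libraries held between 51862006 and 93811213 counts, and 1 count was worth between 0.0101 and 0.0203 CPM. The mates of a read pair were probably counted separately, as there were 1.68 to 1.70 counts per uniquely mapped pair, so small counts stand for fewer molecules than their number. The stellate marker list, of which 12 genes were tested, summed to 9477 and 8869 CPM in miControl and to 6524 and 5886 CPM in miR-6133-5p, with *COL1A1*, *COL1A2*, *ACTA2* and *TAGLN* called lower. The other 8 tested stellate markers were not called, and 4 of the 12 had a log2 fold change above 0. Of the other stellate markers, *DES*, *LUM* and *LRAT* were at 0 to 7 counts in every library. Hepatocyte markers summed to 2.07 to 2.84 CPM, endothelial markers to 5.55 to 6.21 CPM and macrophage markers to 9.16 to 11.2 CPM, and the groups overlapped in each. No hepatocyte, endothelial or macrophage marker was called by edgeR, where 1 macrophage marker and none of the others had an unadjusted p under 0.05. Cholangiocyte markers summed to 83.9 and 85.4 CPM in miControl and to 39.9 and 36.8 CPM in miR-6133-5p. Most of each sum was *SOX9*, which was called lower, while *CDH1*, *EPCAM* and *CFTR* were at 0 to 4 counts. The other tested marker of that list, *KRT7*, went the other way, from 3.62 and 4.44 to 6.61 and 7.08 CPM (log2 fold change 0.76, edgeR adjusted p = 0.00317), and was called higher only with library totals alone among the scalings run. The part of these marker differences in the receptor results was not tested.

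*ADRA2A* codes for the alpha-2A adrenergic receptor, which binds adrenaline and noradrenaline and inhibits adenylyl cyclase through Gi. The gene lies on the plus strand at chr10:112836787-112840665 (GRCh37), and no other annotated exon overlaps its exons. It measured 26.2 and 24.4 CPM in the miControl libraries and 2.29 and 2.18 CPM in the miR-6133-5p libraries. Both groups were tight and far apart, at 25.3 ± 1.26 and 2.24 ± 0.0816 CPM (SD, n = 2 each), which is 11.3-fold lower with the mimic. The log2 fold change was -3.50 (SE 0.14, 95% interval -3.80 to -3.21), with an adjusted p of 8.23e-09 by edgeR. In the order of fitted changes over all 18252 tested genes *ADRA2A* stood 10 from the lowest, the most extreme place of the 9 receptors. The lowest library still held 150 counts of it, so the transcript was reduced and not lost.

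The genes whose pattern over the 4 libraries was nearest to that of *ADRA2A* were *CDH6*, *ITGA5* and *STX2*. Likeness was the Euclidean distance between log2 CPM centred on each gene's mean over the 4 libraries, taken among genes whose mean log2 CPM reached 3. With close replicates in each group, this distance mainly ranks genes by how near their log2 fold change is to that of *ADRA2A*. The distance was 0.24 for *CDH6*, a cadherin, 0.39 for *ITGA5*, the fibronectin receptor's alpha chain, and 0.77 for *STX2*, a syntaxin. Their mean levels went from 183 to 18.8 CPM, from 987 to 113 CPM and from 191 to 29.0 CPM, in that order, with miR-6133-5p. The log2 fold changes were -3.29, -3.13 and -2.72, beside -3.50 for *ADRA2A*, so the likeness describes a fall of like size and no further shared pattern.

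*OXTR* codes for the oxytocin receptor, which raises calcium through Gq and drives contraction of smooth muscle. It lies on the minus strand at chr3:8792067-8811314. It measured 107 and 115 CPM in miControl and 65.6 and 56.9 CPM in miR-6133-5p, so that the groups did not overlap. The means were 111 ± 5.49 and 61.3 ± 6.14 CPM (SD, n = 2 each), and the log2 fold change was -0.85 (SE 0.11, 95% interval -1.09 to -0.62, edgeR adjusted p = 6.68e-05). *OXTR* was thus among the most abundant of the 10 receptors, and its change only just passed the fold that the call requires. Without miR-6133-5p replicate 2 it was -0.77, and with library totals alone -0.69, both short of that fold.

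The endothelin receptors bind the vasoconstrictor peptide endothelin and are encoded by *EDNRA*, the type A receptor that drives contraction, and *EDNRB*, the type B receptor. *EDNRA* lies on the plus strand at chr4:148402069-148466106 and measured 2.24 and 1.84 CPM in miControl and 0.184 and 0.565 CPM in miR-6133-5p. These values rest on 110 and 100 counts in miControl and on 12 and 56 counts with the mimic. The mimic libraries differed from each other by a larger ratio than the miControl libraries did, though not by more CPM. *EDNRA* fell with a log2 change of -2.37 (SE 0.41, 95% interval -3.26 to -1.48, edgeR adjusted p = 7.41e-04), from 2.04 ± 0.284 to 0.374 ± 0.270 CPM (SD, n = 2 each). Without miControl replicate 1 the edgeR adjusted p was 0.0243 at a log2 fold change of -2.25, and leaving out either miR-6133-5p library moved the log2 fold change to -3.47 or -1.86.

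*EDNRB*, on the minus strand at chr13:78469616-78549664, had 2 counts in each miControl library and 12 and 10 counts after miR-6133-5p. The miControl libraries were therefore under the level of 3 counts, at most 0.0610 CPM, that a count of 0 allows, and no fold is given. A fit with no filter on low counts gave an edgeR adjusted p of 0.356 for it, and DESeq2 gave an unadjusted p of 0.216 and no adjusted one.

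The protease-activated receptors are switched on when a protease cuts their outer end. *F2R* codes for the thrombin receptor PAR1 and *F2RL1* for PAR2, which trypsin-like proteases cleave. *F2R* (plus strand, chr5:76011951-76031595) measured 101 CPM in both miControl libraries and 62.4 and 61.3 CPM in the miR-6133-5p libraries. The spread within each group was small, at 101 ± 0.106 and 61.8 ± 0.779 CPM (SD, n = 2 each). The log2 fold change was -0.71 (SE 0.10, 95% interval -0.93 to -0.50, edgeR adjusted p = 1.35e-04), so that *F2R* was lower beyond the replicate spread, by 1.64-fold, yet short of the fold that a call requires.

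*F2RL1* (plus strand, chr5:76114758-76131140) measured 0.529 and 0.404 CPM in miControl and 0.612 and 0.343 CPM in miR-6133-5p, with 22 to 40 counts a library. The groups overlapped, and the log2 fold change of 0.01 had a 95% interval of -0.98 to 1.01 (edgeR adjusted p = 0.988), which leaves room for a change of up to about the size seen for *S1PR2* in either direction. Of its exon bases 10.4% overlap an exon on the opposite strand, and the strand setting of the counting is not given in the sources used here. The third expressed relative in this family, *F2RL2*, which codes for PAR3, lies beside them on the minus strand at chr5:75911307-75919238. *F2RL2* measured 3.19 and 3.76 CPM in miControl and 0.765 and 0.757 CPM with the mimic, a log2 fold change of -2.19 (SE 0.24, edgeR adjusted p = 1.7e-05). The ratio of *F2R* to *F2RL2* in CPM was 31.7 and 26.9 in miControl and 81.6 and 81.0 in miR-6133-5p, so within this family the more abundant gene was the less reduced of the pair.

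Sphingosine 1-phosphate, a lipid mediator, acts on stellate cells through several receptors, of which S1PR1 signals through Gi, S1PR2 drives RhoA strongly and S1PR3 couples to several G proteins. *S1PR3* (plus strand, chr9:91605778-91620070) measured 119 CPM in both miControl libraries and 55.2 and 54.1 CPM in the miR-6133-5p libraries. It fell 2.18-fold, from 119 ± 0.240 to 54.7 ± 0.757 CPM (SD, n = 2 each, log2 fold change -1.13, SE 0.10, 95% interval -1.34 to -0.91, edgeR adjusted p = 2.97e-06).

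*S1PR2* (minus strand, chr19:10332109-10342007) measured 2.56 and 2.72 CPM in miControl and 1.42 and 1.24 CPM in miR-6133-5p. The groups did not overlap, and the gene fell with a log2 change of -0.99 (SE 0.23, 95% interval -1.49 to -0.49, edgeR adjusted p = 0.00559), from 2.64 ± 0.109 to 1.33 ± 0.128 CPM (SD, n = 2 each). Its call was lost without miControl replicate 1 (edgeR adjusted p = 0.0453) and without miControl replicate 2 (edgeR adjusted p = 0.0492), at log2 fold changes of -1.04 and -0.98.

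*S1PR1* (plus strand, chr1:101702421-101709269) measured 2.44 and 2.75 CPM in miControl and 2.62 and 2.44 CPM in miR-6133-5p. The groups overlapped, with means of 2.60 ± 0.221 and 2.53 ± 0.123 CPM (SD, n = 2 each), and the log2 fold change was -0.04 (SE 0.21, 95% interval -0.49 to 0.40, edgeR adjusted p = 0.909). At a like abundance to *S1PR2*, this interval leaves out a fall of the size fitted for *S1PR2* or *S1PR3*. The ratio of *S1PR3* to *S1PR1* in CPM was 48.9 and 43.2 in the miControl libraries and 21.1 and 22.2 in the miR-6133-5p libraries. This difference between the receptor genes was not itself tested.

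*LPAR1* codes for the main receptor of lysophosphatidic acid, a lipid that stimulates contraction and growth of fibroblasts. It lies on the minus strand at chr9:113635543-113800750, and measured 50.5 and 52.7 CPM in miControl and 15.4 and 15.8 CPM in miR-6133-5p. The replicates lay close together in both groups, at 51.6 ± 1.49 and 15.6 ± 0.247 CPM (SD, n = 2 each), and the gene fell 3.31-fold (log2 fold change -1.73, SE 0.11, 95% interval -1.96 to -1.50, edgeR adjusted p = 1.78e-07). Of the abundant receptors above 20 CPM in miControl, only *ADRA2A* had a larger fitted fall among the 10 genes.

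**Figure D2:**
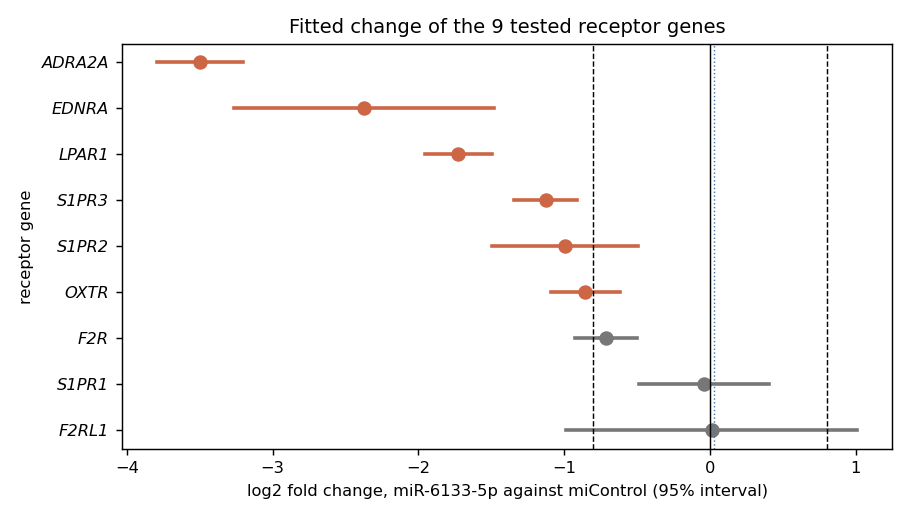
Fitted log2 fold change of the 9 tested receptor genes, miR-6133-5p against miControl, with 95% intervals computed from edgeR's F statistic. Dashed lines mark the fold of 0.8 on the log2 scale that a call requires, the dotted line marks the median of all tested genes, and orange marks the 6 genes called lower. *ADRA2A* lies at -3.50 with a narrow interval, while the interval of *EDNRA* is the widest of the called genes.

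Levels of different genes were compared per kilobase of annotated exon. In miControl the order was *F2R* at 25.5, *OXTR* at 24.4, *LPAR1* at 12.5, *S1PR3* at 8.70 and *ADRA2A* at 6.52 CPM per kilobase, followed at a distance by *S1PR2* at 0.725, *S1PR1* at 0.497, *EDNRA* at 0.481, *F2RL1* at 0.159 and *EDNRB* at 0.00690. On this length, the neighbours *F2R* and *OXTR*, and likewise *S1PR1* and *EDNRA*, differed by no more than the SD of *OXTR* and of *EDNRA*. With miR-6133-5p the order was *F2R* at 15.6, *OXTR* at 13.5, *S1PR3* at 3.99, *LPAR1* at 3.77, *ADRA2A* at 0.577, *S1PR1* at 0.484, *S1PR2* at 0.366, *F2RL1* at 0.163, *EDNRA* at 0.0883 and *EDNRB* at 0.0254 CPM per kilobase. *ADRA2A* thus came down from the upper group of 5 receptors to a place just above *S1PR1*, and just below it with the canonical transcript's length. Summed over the 10 genes, the level was 78.6 and 80.3 CPM per kilobase in miControl and 39.7 and 37.4 in miR-6133-5p, or 48.5% of control. The length used matters for *S1PR3*, whose annotated exons span 13702 bases but whose canonical transcript has 4330. With the canonical length, an alternative added after the data were seen, *S1PR3* led the miControl order at 27.5 CPM per kilobase and came to 12.6 with miR-6133-5p. The length matters for *S1PR1* too, with 5223 annotated exon bases and 2778 canonical ones. On the canonical length *S1PR1* stood at 0.935 CPM per kilobase in miControl, above *S1PR2* at 0.725 and *EDNRA* at 0.513.

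The make-up of the receptor families differed between the groups, as shown by each gene's share of its family's summed CPM per kilobase of canonical transcript. This is the length that was added after the data were seen. Among the alpha adrenergic receptors, without *ADRA2B*, which was not analysed here, *ADRA2A* made up 86.5% and 84.9% in miControl and 43.1% and 46.7% in miR-6133-5p. *ADRA1B*, a Gq-coupled receptor, made up 7.48% and 6.32% in miControl and 29.3% and 30.1% in miR-6133-5p. *ADRA2C*, the closest relative of *ADRA2A* here, made up 5.11% and 6.93% in miControl and 21.9% and 20.4% in miR-6133-5p. The larger shares of *ADRA1B* and *ADRA2C* went with a family sum that was 16.9% of control, and with log2 fold changes of their own levels below 0, at -0.46 and -0.75, neither called.

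*S1PR3* made up 87.4% and 86.9% of the sphingosine 1-phosphate receptors in miControl and 74.9% and 76.5% in miR-6133-5p, and it led the family in every library. Per kilobase of annotated exon its share was 73.3% and 72.5% in miControl and 54.6% and 56.8% in miR-6133-5p. That of *S1PR5* was then 16.9% and 16.7% in miControl and 33.2% and 31.5% in miR-6133-5p, so the shares in this family depend on the length used. *LPAR1* made up 88.0% and 84.9% of the lysophosphatidic acid receptors in miControl and 66.2% and 65.4% in miR-6133-5p, while *LPAR2* went from 5.45% and 7.65% to 19.9% and 19.0%. Among the protease-activated receptors the share of the leading gene went the other way, with *F2R* at 96.0% and 95.6% in miControl and 97.4% and 98.0% in miR-6133-5p. These shares went with smaller family sums per kilobase of canonical transcript. The sums were 52.8% of control for the sphingosine 1-phosphate, 39.7% for the lysophosphatidic acid and 59.9% for the protease-activated receptors. The log2 fold changes of the genes' own levels were 0.21 for *S1PR5*, 0.22 for *LPAR2* and -0.71 for *F2R*, none called.

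**Figure D3:**
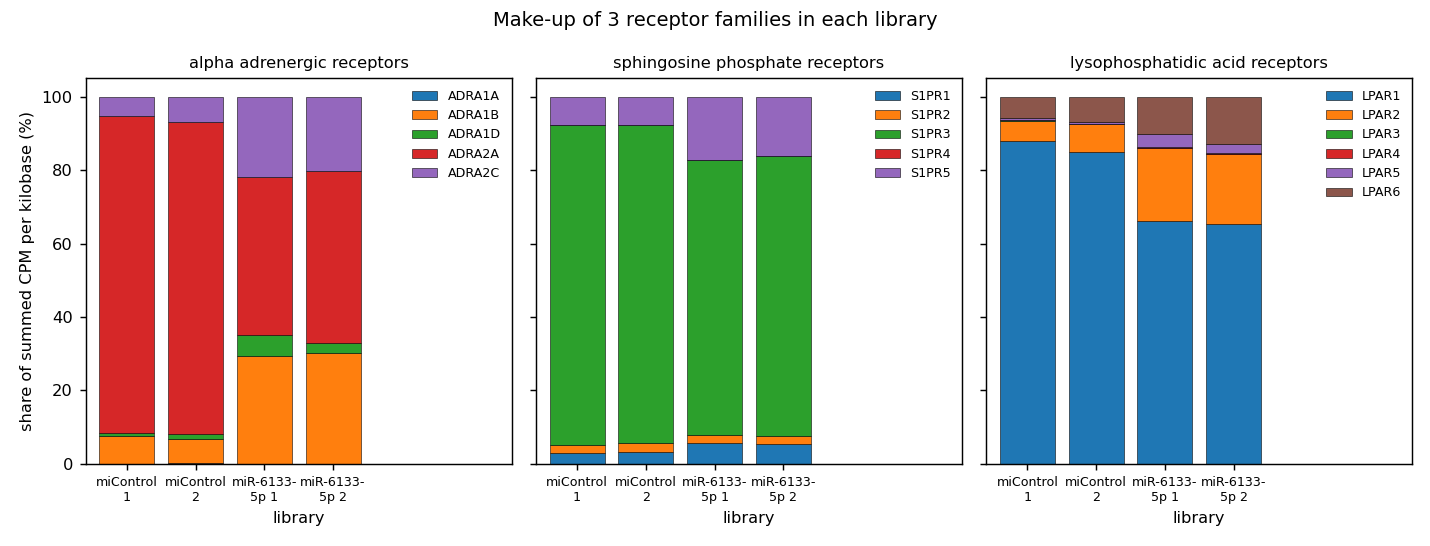
Share of each gene in the summed CPM per kilobase of canonical transcript of its family (%), for the alpha adrenergic, sphingosine phosphate and lysophosphatidic acid receptors in the 4 libraries, replicates 1 and 2 of each group. The *ADRA2A* share is 86.5% and 84.9% in miControl against 43.1% and 46.7% in miR-6133-5p, and *ADRA2A*, *S1PR3* and *LPAR1* are the largest part of their families in every library.

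Of 19 listed relatives in these families, 18 were matched and 9 tested, of which 1 was called lower, *F2RL2*, and none higher by edgeR. Over all tested genes 5.54% were called lower and 2.90% higher, the background for this list and each list below. At an unadjusted p under 0.05 edgeR also gave 0 relatives higher, and DESeq2 called 0 higher. The other 8 tested relatives were not called, and their log2 fold changes ran from -0.80 for *ADRA1D* and -0.75 for *ADRA2C* through -0.46 for *ADRA1B*, -0.47 for *LPAR6*, 0.21 for *S1PR5* and 0.22 for *LPAR2* to 0.83 for *ADRB1* and 0.92 for *LPAR5*. Except for *S1PR5*, whose mean was 5.62 CPM in miControl and 6.51 CPM in miR-6133-5p, the uncalled relatives were all below 4 CPM. The median of the 9 log2 fold changes was -0.46, with 5 below 0 and 4 above it, and -0.30 with library totals alone. Leaving out 1 library gave medians of -0.32 to -0.27. Halving the counts, an alternative added after the data were seen, gave -0.14 over 8 tested relatives. The other alternatives gave -0.47 to -0.45.

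Among 22 tested genes of 32 other vasoactive and stellate cell receptors, 4 were called lower and 3 higher, with a median log2 fold change of -0.05. The serotonin receptor *HTR1B* went from 1.13 ± 0.0956 to 0.236 ± 0.0771 CPM (SD, n = 2 each), a log2 fold change of -2.29 (edgeR adjusted p = 0.00103). The bradykinin receptor *BDKRB1* went from 0.888 ± 0.00969 to 0.210 ± 0.0163 CPM (SD, n = 2 each), a log2 fold change of -2.06 (edgeR adjusted p = 0.00255). *BDKRB1* had 44 and 48 counts in miControl and 13 and 22 in miR-6133-5p. Of its exon bases 15.9% overlap another gene's exon on the same strand and 8.22% one on the opposite strand. *AGTR1*, the angiotensin II receptor that drives vasoconstriction, measured 14.7 and 14.9 CPM in miControl and 4.54 and 3.25 CPM in miR-6133-5p (log2 fold change -1.94, SE 0.16, edgeR adjusted p = 1.85e-06). The opposite direction was seen for *HRH1*, the histamine receptor that acts through Gq. *HRH1* measured 24.4 CPM in both miControl libraries and 65.3 and 66.2 CPM with the mimic, a log2 fold change of 1.43 (SE 0.10, edgeR adjusted p = 4.99e-07). It was also the highest of this list per kilobase of annotated exon in miControl, while *AGTR1* was the highest per kilobase of canonical transcript. The remaining calls were *BDKRB2* at -1.72, the scavenging chemokine receptor *ACKR3* at 1.30 and the prostacyclin receptor *PTGIR* at 1.11, all log2 fold changes and all named after their values were seen. Without miControl replicate 1 the calls of *HTR1B*, *BDKRB1*, *PTGIR* and *ACKR3* were lost, which left 3 of the 7. *BDKRB1* and *ACKR3* were also lost without miControl replicate 2, and *ACKR3* without miR-6133-5p replicate 1.

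Genes that make, present or clear the ligands of these receptors were tested for 26 of 29 listed, and 4 were called lower and none higher by edgeR, with a median log2 fold change of -0.17. At an unadjusted p under 0.05 edgeR gave 9 lower and 5 higher, and DESeq2 called 4 lower and 0 higher. *EDN1*, which codes for the precursor of endothelin-1, the ligand of EDNRA and EDNRB, measured 82.2 and 83.2 CPM in miControl and 47.4 and 41.1 CPM in miR-6133-5p (log2 fold change -0.90, SE 0.11, edgeR adjusted p = 3.51e-05). Tissue factor, which starts the cascade that produces thrombin, is coded by *F3*, and went from 123 ± 3.19 to 63.0 ± 6.18 CPM (SD, n = 2 each, log2 fold change -0.96, edgeR adjusted p = 2.12e-05). *SERPINE2*, a secreted inhibitor of thrombin, went from 433 ± 0.342 to 226 ± 20.5 CPM (SD, n = 2 each, log2 fold change -0.94, edgeR adjusted p = 2.54e-05). The genes called lower here thus include the starter of thrombin formation and an inhibitor of thrombin alike. The fourth call, named after its value was seen, was *PLPP3*, which breaks down lysophosphatidic acid outside the cell, at a log2 fold change of -0.86. The highest gene of the list per kilobase of annotated exon, *TFPI2*, had a log2 fold change of -0.12 and was not called, while *SERPINE2* was the highest per kilobase of canonical transcript. With library totals alone 1 of the 4 calls remained, that of *F3*.

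Inside the cell, these receptors act through G proteins made of alpha, beta and gamma subunits. Of 12 alpha subunits 11 were tested, and *GNAO1*, a Gi-family subunit, was called lower and none higher by edgeR, with a list median of -0.16 on the log2 scale. At an unadjusted p under 0.05 edgeR gave 4 lower and 0 higher, and DESeq2 called 1 lower and 0 higher. *GNAO1* went from 24.7 ± 0.407 to 14.0 ± 2.18 CPM (SD, n = 2 each), a log2 fold change of -0.81 (edgeR adjusted p = 3.58e-04). Its call was lost without miControl replicate 1 (edgeR adjusted p = 0.0159) and without miR-6133-5p replicate 1, where the log2 fold change was -0.68. The highest per kilobase of annotated exon, though below *GNAS* per kilobase of canonical transcript, was *GNAI2*, through which ADRA2A can signal. It measured 490 ± 24.6 and 482 ± 21.9 CPM (SD, n = 2 each), a log2 fold change of -0.02 with a 95% interval of -0.25 to 0.20.

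Among 12 tested of 15 beta and gamma subunits, 2 were called lower and 1 higher, with a median of -0.14. *GNG4* went from 15.6 ± 0.638 to 7.60 ± 1.30 CPM, and *GNG2* from 10.8 ± 1.04 to 22.2 ± 0.883 CPM (SD, n = 2 each). Their log2 fold changes were -1.04 and 1.04, with edgeR adjusted p-values of 1.10e-04 and 3.18e-05. The abundant *GNG12*, highest of the list per kilobase of annotated exon but not of canonical transcript, where *GNB1* led, went from 521 ± 22.3 to 298 ± 4.50 CPM (SD, n = 2 each, log2 fold change -0.81, edgeR adjusted p = 5.96e-05), and without miControl replicate 2 its log2 fold change of -0.79 was short of the call. With library totals alone 1 of the list was called lower and 2 higher.

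Among the effectors that the G proteins act on, 25 of 29 genes were tested, of which 1 was called lower and 2 higher, with a median of -0.23. Over all tested genes 5.54% were called lower and 2.90% higher. *ARHGEF11*, an exchange factor that links G proteins to RhoA, went from 75.9 ± 0.659 to 33.2 ± 5.70 CPM (SD, n = 2 each, log2 fold change -1.19, edgeR adjusted p = 1.02e-05). *PLCB4*, a phospholipase C that Gq activates, went from 26.9 ± 7.17 to 55.1 ± 4.71 CPM (SD, n = 2 each, log2 fold change 1.03, edgeR adjusted p = 2.12e-04). *ITPR1*, the calcium channel of the endoplasmic reticulum, measured 14.2 and 13.4 CPM in miControl and 20.0 and 28.7 CPM in miR-6133-5p (log2 fold change 0.82, edgeR adjusted p = 0.00132). *RHOA*, the highest of the list per kilobase, went from 1166 ± 4.18 to 820 ± 88.8 CPM (SD, n = 2 each, log2 fold change -0.51, edgeR adjusted p = 0.00305) and was not called, since the fold was too small. Without miControl replicate 1 neither *PLCB4* (log2 fold change 0.77) nor *ITPR1* (edgeR adjusted p = 0.0342) was called, and *ITPR1* also lost its call without miControl replicate 2 (edgeR adjusted p = 0.0324) and without miR-6133-5p replicate 2 (log2 fold change 0.52). The balance of the calls in this list turned with the setting. There were 2 lower and 0 higher without miControl replicate 1, 3 lower and 1 higher without miR-6133-5p replicate 2, and 2 lower and 2 higher with RLE scaling or DESeq2.

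RGS proteins, receptor kinases and arrestins, which end receptor signals, were listed together with *GPSM1* and *GPSM2*. Of this list 22 of 28 genes were tested, with 2 called lower, 1 higher and a median of -0.03. *RGS17* went from 4.02 ± 0.760 to 10.9 ± 1.38 CPM (SD, n = 2 each, log2 fold change 1.44, edgeR adjusted p = 2.84e-05). *RGS7* went from 3.16 ± 0.0440 to 1.32 ± 0.0746 CPM (SD, n = 2 each, log2 fold change -1.26, edgeR adjusted p = 7.64e-04), and lost its call without miControl replicate 1 (edgeR adjusted p = 0.0160) or 2 (edgeR adjusted p = 0.0105). *RGS3* went from 74.0 ± 6.67 to 37.1 ± 0.0979 CPM (SD, n = 2 each, log2 fold change -0.997, edgeR adjusted p = 1.43e-05). *RGS4*, the highest of them per kilobase, measured 165 ± 6.69 and 168 ± 4.99 CPM (SD, n = 2 each), a log2 fold change of 0.02.

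**Figure D4:**
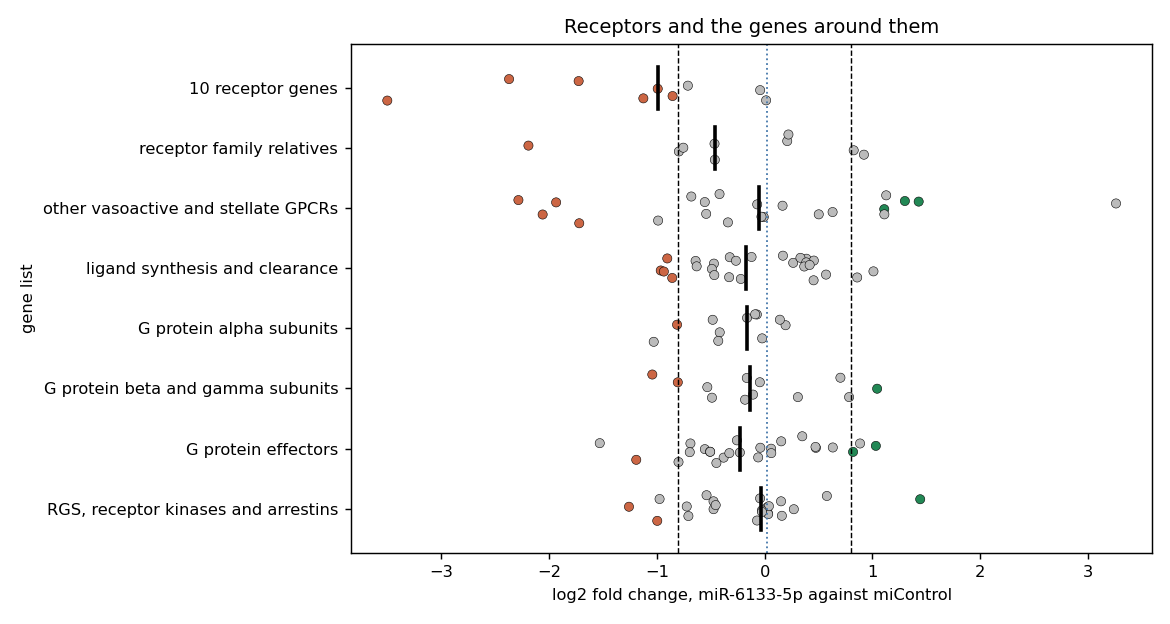
Log2 fold change of every tested gene, miR-6133-5p against miControl, for the 10 receptor genes and the 7 lists of related genes (horizontal axis, 1 row of points a list). Orange marks genes called lower, green genes called higher and grey genes not called, black bars give list medians, dashed lines mark 0.8 on either side of 0 and the dotted line is the all-gene median. The median of the tested receptor genes is -0.99, while the medians of the other 7 lists lie between -0.46 and -0.03.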

How the data were processed

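RNA was sequenced from 4 LX-2 libraries with the TruSeq Stranded mRNA kit. Per the labels, the authors aligned read pairs to GRCh37 with STAR 2.5.3a and counted them per gene with featureCounts (Subread 1.6.4), and they deposited whole-number counts for 63677 genes. The strand setting is not given in the sources used here. Counts of genes passing edgeR's filterByExpr (18252) were scaled by TMM and tested with edgeR 4.0.16 (glmQLFit, glmQLFTest, R 4.3.3), unblocked, and p-values were adjusted over all of them. The test was checked on simulated data. CPM are counts per 1000000 of TMM-scaled totals, and 3 counts served as the floor. Each SE was computed as the absolute log2 fold change divided by the square root of edgeR's F statistic. The 95% intervals used this SE with a t quantile. Depth was 51862006 to 93811213 counts. DESeq2 1.42.0 was an alternative. The 10 receptor genes and the lists were chosen with earlier results of these data known. Named genes were all 10 receptors, the tested relatives, up to 3 called genes with the largest change and the gene highest per kilobase in each list, and the 3 nearest to *ADRA2A*. No search for miR-6133-5p sites was made here. 1 listed relative is not reported here.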

Additional observations from a re-analysis of the deposited data

How the results depend on the processing

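*ADRA2A* and *LPAR1* kept their calls under all 14 alternatives, at log2 fold changes of -3.58 to -3.34 and -1.77 to -1.56, and *F2R* stayed uncalled in all 14. Of 126 alternative log2 fold changes of the receptor genes, 108 kept their direction and side of the threshold, and 137 of 154 alternative counts of called genes were within 1.5 times the reported count. Part of this agreement was fixed in advance. The alternatives with glmTreat and with an adjusted p under 0.05 reused the main log2 fold changes, so no direction could change in them. The looser adjusted p could not remove a call, and *F2R*, short of the required fold, could not be called by either. The strictest alternative, edgeR's glmTreat, which tests against a log2 fold change of 0.8 itself, called 2 of the receptor genes lower, and 326 genes lower and 80 higher in all. With it *OXTR* (-0.85, adjusted p = 1.00), *EDNRA* (-2.37, adjusted p = 0.0146), *S1PR2* (-0.99, adjusted p = 0.874) and *S1PR3* (-1.13, adjusted p = 0.0231) lost their calls. It called 3 of the other vasoactive receptors, 1 of the RGS and arrestin list, and 0 of the ligand, alpha subunit, beta and gamma subunit and effector lists. The stricter test could only lose calls, but how many it lost was not fixed in advance. Library totals alone gave 977 genes higher, 1 ligand gene, 0 alpha subunits, -0.69 for *OXTR*, -0.83 for *S1PR2* (adjusted p = 0.0136) and 0.12 for *S1PR1*. Thinning to the smallest library gave 0 alpha subunits and 0.0198 for *S1PR1*. *F2RL1* came to -0.00088 with at least 10 counts in every library and to -0.027 with counts halved, an alternative added after the data were seen.

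Leaving out 1 library, with the lone library of its group assumed to vary like the other group, gave 4 to 6 receptor genes called lower, 770 to 1249 genes lower, and 293 to 587 higher, the lowest without miControl replicate 1. It gave 3 to 7 other vasoactive receptors and 0 to 1 alpha subunits, and log2 fold changes of -0.98 to -0.77 for *OXTR*, -3.47 to -1.86 for *EDNRA*, -1.11 to -0.91 for *S1PR2*, -0.45 to 0.38 for *F2RL1* and -0.14 to 0.0213 for *S1PR1*. The causes of these changes were not tested. Deviations of libraries with the same replicate number correlated at r = 0.05, so the numbers were not taken to pair them. With a replicate block, 6 receptor genes were called lower, 1130 genes lower and 642 higher, *F2RL1* came to -0.0059, and the call of *ITPR1* was lost at 0.80. The depth limits *EDNRB* and *F2RL1* most, and 2 libraries a group limit every result.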
